A study of Rattus norvegicus with 9 samples.

Results

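A set of 10 genes of the extracellular matrix and of fibrosis were followed in kidney RNA: the fibrillar collagen chains Col1a1, Col1a2 and Col3a1, the basement membrane chains Col4a1 and Col4a2, fibronectin (Fn1), the ligand Tgfb1, and the matrix-associated proteins Ccn2 (Ctgf), Sparc and Dcn. They were chosen by Ensembl identifier, and all 10 stood among the 17862 features of the series. The study sequenced ribosomal RNA-depleted RNA from kidneys at 6 weeks of age in 3 groups of 3 samples. WT samples carry the treatment label Normal, Model samples the label Hypertension, and QDG samples the label Hypertension+QDG, where QDG is Qingda granule, a Chinese herbal preparation. The sources used here do not state the strain, the cause of the hypertension, the sex or the granule's dose. Since separate animals are not stated either, p-values cover only the spread of these libraries, part of which may be technical.

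Scarring of the kidney is the build-up of matrix between and around tubules and glomeruli, laid down mainly by fibroblasts and pericytes. TGF-beta, encoded in part by Tgfb1, drives these cells to make fibrillar collagens and fibronectin, and Ccn2 acts downstream of it. Type IV collagen forms the basement membranes of tubules, vessels and glomeruli and is made by healthy kidney as well. Decorin, the product of Dcn, is a small proteoglycan of interstitial fibroblasts that coats collagen fibrils and binds TGF-beta.

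Values are FPKM, reads or fragments scaled to feature length and a size for each library. The sizes implied by the steps of the values lay between 26.2 M (WT 1) and 31.4 M (WT 3) reads or fragments. They were not plain read totals. The size of Model 3 was 26.8 M, below the 27.6 M reads recovered in its listed features. In WT 3 the size of 31.4 M stood above 27.1 M recovered reads. Recovered reads in listed features ran from 25.7 M (WT 2) to 28.4 M (Model 1). A member rested on 75 (Col1a1 in WT 2) to 5360 (Col4a1 in WT 3) recovered reads per library. The labels give rat as the organism while the identifiers of the members are of the mouse type. Whether rat reads were assigned to mouse genes is not known, and such assignment would make the levels depend on sequence match as well. No table pairs the other identifiers with gene names. Kidney cell markers and the other matrix genes could therefore not be looked up, and the tissue label was not checked.

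On the length-scaled FPKM scale the members fell into abundant and scarce genes. Averaged over all 9 libraries, Sparc stood at 31.7 FPKM, Ccn2 at 28.4, Col4a1 at 21.3 and Col4a2 at 17.0. Dcn followed at 6.07, Tgfb1 at 2.80, Col1a2 at 2.62, Col1a1 at 2.10, Col3a1 at 1.88 and Fn1 at 1.25. The basement membrane chains and the matricellular proteins lay above the 80th percentile of all features in every library. Col1a1 ranged from the 21.4th percentile (WT 2) to the 60.4th (QDG 2). Over the 9 libraries the ranges of neighbours in this order overlapped, except those of Col4a2 and Dcn. The order of the scarce genes also differed between groups. In WT, Fn1 (mean 0.820 FPKM) stood above Col1a1 (0.784) and Col3a1 (0.664), and in QDG Col1a1 (3.35) stood above Col1a2 (3.26) and Tgfb1 (2.94).

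**Figure D1:**
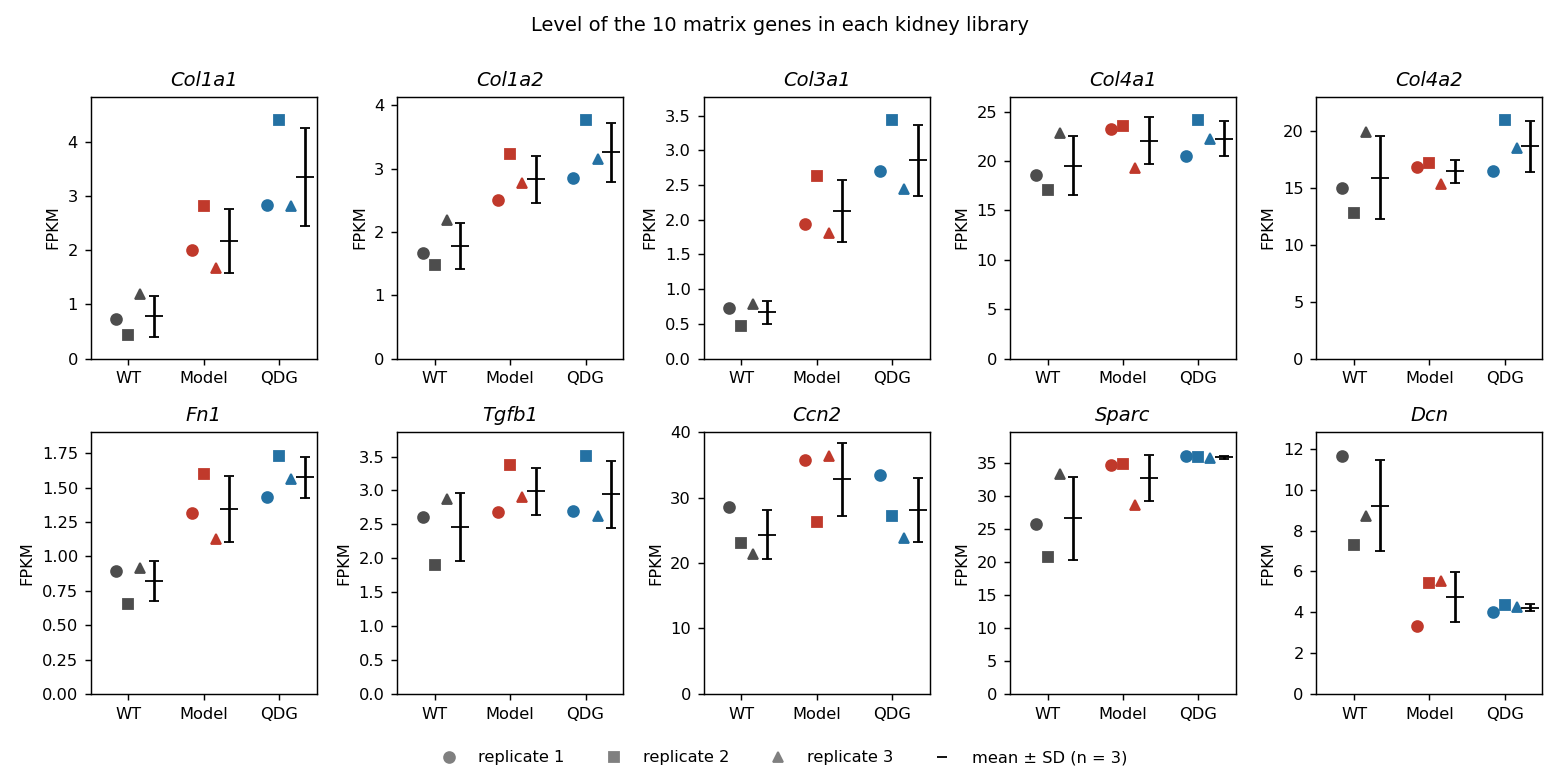
FPKM of each of the 10 genes on a linear axis from 0, with 1 symbol per library and the mean ± SD of each group of 3. Col1a1, Col1a2, Col3a1 and Fn1 were higher in every Model and QDG library than in every WT library, and Dcn was lower.

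Col1a1 and Col3a1 were higher, and Dcn lower, in hypertensive than in normal kidney. Of the 10 members, 2 were called higher in Model than in WT (Col1a1 and Col3a1) and 1 was called lower (Dcn), by limma with a Benjamini-Hochberg adjusted p under 0.05 over 12187 tested features. Over all tested features 6.01% were called higher and 1.9% lower in this comparison, 963 in all. That number ran from 195 (without Model 3) to 1529 (without WT 3) with 1 library left out. The third fibrillar gene, Col1a2, missed the threshold at a log2 difference of 0.47 (limma adjusted p = 0.0529), and Fn1, type IV collagen, Tgfb1, Ccn2 and Sparc did not pass either. Col1a1, Col3a1 and Fn1 had WT means under 1 FPKM (0.784, 0.664 and 0.820), so they met the filter of a mean of 1 FPKM over the 9 libraries through their Model and QDG levels. With no filter on low values the Col3a1 call held and the Col1a1 call did not (adjusted p = 0.0514). The Col1a1 call was also lost in 6 of the 9 fits that left out a library, the Dcn call in 4 and the Col3a1 call in 0. The median log2 difference was 0.34 over the 10 members and 0.02 over all tested features, both on the log2(FPKM + 1) scale. In bulk tissue, fewer cells of a type and less RNA per cell cannot be told apart. Hypertension cannot be told apart from any other difference between the WT and Model animals.

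In QDG no member was called different from Model. Against WT, QDG had 3 members called higher (Col1a1, Col1a2 and Col3a1) and 1 called lower (Dcn), where 1.63% of all tested features were called higher and 0.837% lower, 301 in all. With 1 library left out that number ran from 39 (without QDG 2) to 775 (without WT 3). The comparisons of Model and of QDG with WT share the WT libraries, so they are not independent of each other. For the 4 genes called in QDG, the QDG mean lay farther from the WT mean than the Model mean did. That further difference did not pass in any of the 4. Genes picked by a call of QDG against WT tend to have QDG far from WT in these same values. No trend is therefore read from this order.

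**Figure D2:**
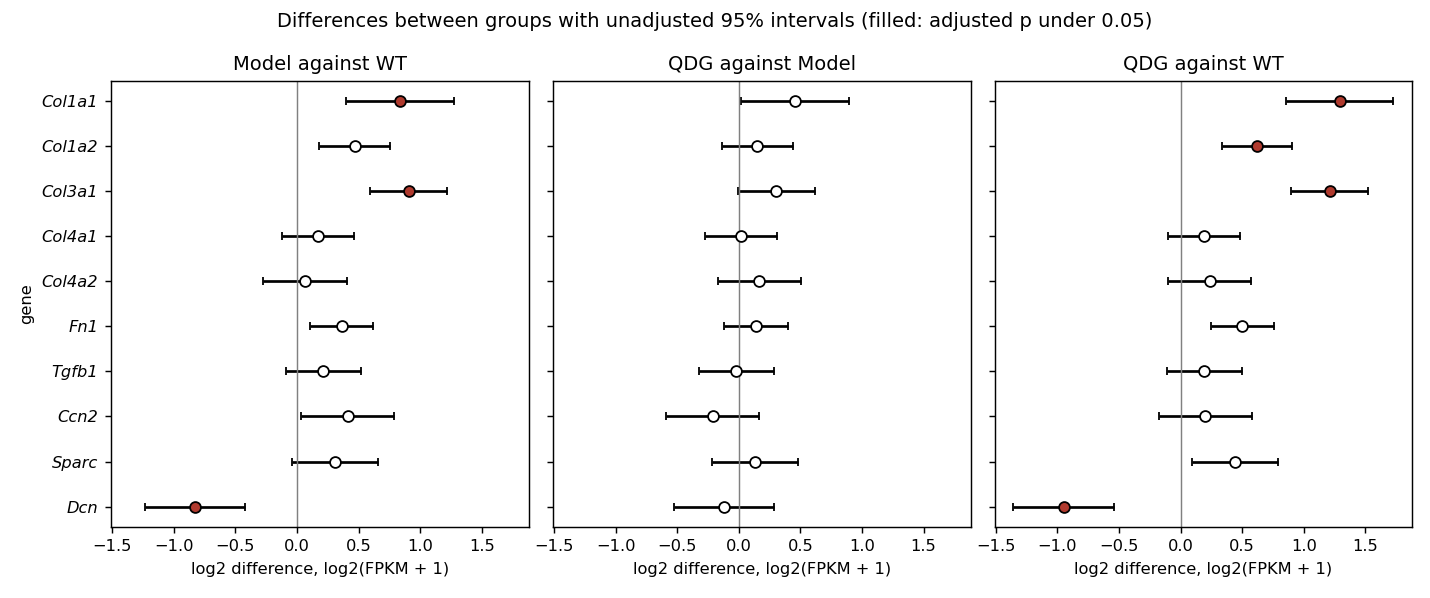
Difference between group means on the log2(FPKM + 1) scale for each gene and comparison, with the unadjusted 95% interval of the limma fit. Filled points passed an adjusted p of 0.05 and open points did not. Fibrillar collagen genes lie to the right and Dcn to the left in both comparisons with WT, and no point is filled for QDG against Model.

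Col3a1 (ENSMUSG00000026043) encodes the chain of type III collagen, a homotrimer that accompanies type I collagen in interstitial fibrils. Its level was 0.735, 0.472 and 0.785 FPKM in WT, 1.94, 2.63 and 1.81 in Model, and 2.70, 3.43 and 2.44 in QDG. Every Model and QDG library lay above every WT library, while Model and QDG overlapped. The group means were 0.664 ± 0.168 (SD, n = 3), 2.13 ± 0.443 and 2.86 ± 0.514 FPKM, a 3.20-fold higher mean in Model and a 4.30-fold higher one in QDG than in WT. Model exceeded WT by a log2 of 0.91 (SE 0.14, limma adjusted p = 0.0112) and QDG exceeded WT by 1.21 (SE 0.14, limma adjusted p = 0.00649). Col3a1 passed in both comparisons under all 18 alternatives in which it was tested, with adjusted p values up to 0.0374. With voom on recovered reads, which adds no pseudocount of 1 FPKM, the log2 difference was 1.68 and 2.10 (scaled by the median ratio), while a pseudocount of 5 gave 0.33 and 0.47.

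Col1a1 (ENSMUSG00000001506) encodes the alpha 1 chain of type I collagen, the main fibre of scar tissue. Its values were 0.733, 0.434 and 1.18 FPKM in WT, 2.01, 2.82 and 1.68 in Model, and 2.84, 4.40 and 2.82 in QDG. The 3 groups did not overlap: all Model libraries stood above all WT libraries, and all QDG libraries above all Model libraries, the last by a narrow margin between Model 2 and QDG 3. Of all tested features, 17.3% had every Model library above every WT library, and 10.4% every QDG library above every Model library. The share with both was not counted. The mean of Col1a1 was 0.784 ± 0.377 FPKM (SD, n = 3) in WT, 2.17 ± 0.588 in Model and 3.35 ± 0.905 in QDG. The log2 difference from WT was 0.83 with an SE of 0.20 in Model (limma adjusted p = 0.0344) and 1.29 with an SE of 0.20 in QDG (limma adjusted p = 0.0130). The Col1a1 call in Model was lost when WT 1, WT 2, Model 1, Model 2, Model 3 or QDG 3 was left out, with adjusted p from 0.0502 (without QDG 3) to 0.0984 (without WT 2). It was also lost with a pseudocount of 5 (log2 difference 0.31, adjusted p = 0.0532) and when the fit held the WT and Model libraries alone (adjusted p = 0.0688). The size of the difference followed the pseudocount. With one of 0.1 it was 1.42 in Model and 2.03 in QDG, and voom scaled by the median ratio gave 1.52 and 2.14. The call in QDG was lost without WT 1 (adjusted p = 0.0526) or QDG 2 (adjusted p = 0.0534).

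Col1a2 (ENSMUSG00000029661) encodes the alpha 2 chain that joins alpha 1 chains in the type I heterotrimer. Its values were 1.67, 1.47 and 2.18 FPKM in WT, 2.50, 3.23 and 2.77 in Model, and 2.86, 3.76 and 3.15 in QDG. All Model and QDG libraries lay above all WT libraries, and the Model and QDG ranges overlapped. The log2 difference from WT was 0.47 with an SE of 0.13 in Model, which missed the threshold (limma adjusted p = 0.0529), and 0.62 with an SE of 0.13 in QDG (limma adjusted p = 0.0380). In Model it passed without WT 3 (adjusted p = 0.0264), after removal of the length trend (0.0281), after quantile normalization (0.0458), with a pseudocount of 0.1 (0.0495) and with voom scaled by the median ratio (0.0318). In QDG it was lost without WT 1, WT 2, QDG 1, QDG 2 or QDG 3, with adjusted p from 0.0783 (without WT 2) to 0.165 (without QDG 2), and without a filter on low values (0.0613). A pseudocount of 5 gave a log2 difference of 0.21 in Model and 0.29 in QDG.

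The promoter of rat Col1a2 is shown because Col1a2 is the fibrillar collagen gene with an entry in the reference table used here. It is the RefSeq sequence of build GRCr8, chr4:33518307-33518606 on the plus strand, from 250 bases before to 50 after the start of the gene. Capitals mark the letters CCAAT read on the opposite strand, which begin at position −221 from that start, and TATAAA, which begin at −170.
Col1a2: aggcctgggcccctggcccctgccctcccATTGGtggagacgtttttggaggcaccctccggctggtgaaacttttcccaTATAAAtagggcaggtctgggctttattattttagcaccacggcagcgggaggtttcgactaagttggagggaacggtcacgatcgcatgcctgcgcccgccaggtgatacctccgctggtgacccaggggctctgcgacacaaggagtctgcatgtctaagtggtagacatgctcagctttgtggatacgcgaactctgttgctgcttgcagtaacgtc
TATAAA, the letters of a TATA box, stood on either strand in 14.2% and the CCAAT letters in 37.5% of the 33469 promoter windows of this length. The members with a window numbered 6, of which 2 held TATAAA (Col1a2 and Ccn2) and 3 held CCAAT (Col1a2, Col4a1 and Col4a2). The windows of Col4a1 and Col4a2 overlap, and the Col4a2 match is the same site as a Col4a1 match.

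The ratio between the type I chains separated the groups. The ratio of Col1a1 to Col1a2 in FPKM was 0.439, 0.295 and 0.542 in WT, 0.802, 0.872 and 0.606 in Model, and 0.993, 1.17 and 0.895 in QDG. The groups did not overlap, with means of 0.425 ± 0.124 (SD, n = 3), 0.760 ± 0.138 and 1.02 ± 0.139. The absolute ratio depends on the lengths behind the values, 6563 bases for Col1a1 and 12426 for Col1a2. That fixed scaling cancels in a change between libraries, but a length trend that differs between libraries need not. Removing each library's length trend took the Model mean from 0.760 to 0.729. The WT mean became 0.429 and the QDG mean 1.03, so the order of the group means held. The ratio of Col3a1 to Col1a1 overlapped between all groups, at 0.918 ± 0.225 in WT, 0.992 ± 0.0764 in Model and 0.866 ± 0.0867 in QDG. No test was run on these ratios. With 3 libraries against 3, an exact permutation test cannot go below p = 0.10.

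**Figure D3:**
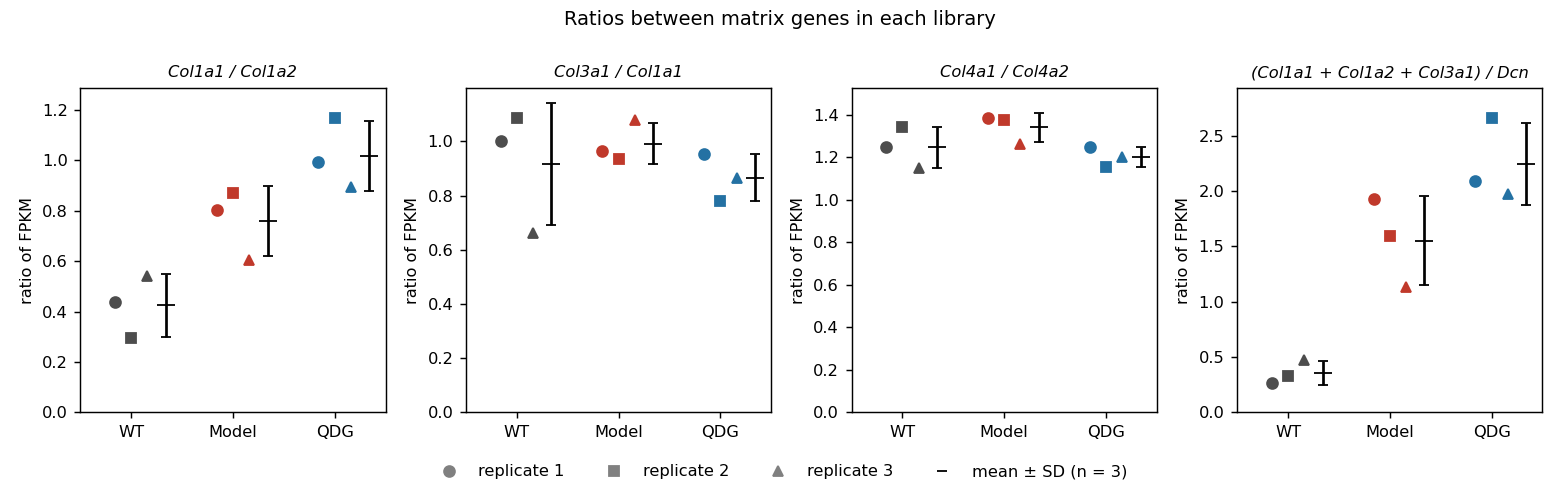
Ratios of FPKM between members in each library, on linear axes from 0, with the mean ± SD of each group of 3. Col1a1 to Col1a2 and the fibrillar collagen sum over Dcn separate the 3 groups, Col3a1 to Col1a1 does not, and Col4a1 to Col4a2 is higher in every Model than in every QDG library. The sum over Dcn was chosen after the values were seen, and its separation from WT follows from that of the genes in it.

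Dcn (ENSMUSG00000019929) moved against Col1a1 and Col3a1. Its level was 11.7, 7.29 and 8.72 FPKM in WT, 3.35, 5.44 and 5.51 in Model, and 4.02, 4.35 and 4.26 in QDG. All Model and QDG libraries lay below all WT libraries, and the QDG libraries lay within the Model range. The means were 9.22 ± 2.23 FPKM (SD, n = 3), 4.76 ± 1.23 and 4.21 ± 0.173, so WT stood 1.94-fold above Model and 2.19-fold above QDG. The log2 difference from WT was −0.83 with an SE of 0.18 in Model (limma adjusted p = 0.0287) and −0.95 with an SE of 0.18 in QDG (limma adjusted p = 0.0306).

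The direction for Dcn held under all 19 alternatives in both comparisons with WT, and its call did not. A pseudocount of 5 gave a log2 difference of −0.54 in Model and −0.62 in QDG. In Model the call was lost without WT 1, Model 1, Model 3 or QDG 2, with adjusted p from 0.0508 (without QDG 2) to 0.0750 (without Model 1), once the length trend was taken out (0.0516), and when the fit held the WT and Model libraries alone (0.0796). In QDG it was lost without WT 1, QDG 1, QDG 2 or QDG 3, with adjusted p from 0.0882 (without WT 1) to 0.122 (without QDG 1). The summed FPKM of Col1a1, Col1a2 and Col3a1 over that of Dcn, a ratio chosen after the values were seen, was 0.269, 0.327 and 0.476 in WT, 1.93, 1.60 and 1.13 in Model, and 2.09, 2.66 and 1.98 in QDG. The 3 groups did not overlap on it, and its separation from WT follows from that of the genes in it.

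Fn1 (ENSMUSG00000026193) encodes fibronectin, the glycoprotein on which collagen fibrils assemble. It stood at 0.895, 0.651 and 0.916 FPKM in WT, 1.31, 1.60 and 1.12 in Model, and 1.43, 1.73 and 1.56 in QDG. No Model or QDG library reached down to the WT range. The log2 difference from WT was 0.36 with an SE of 0.12 in Model (limma adjusted p = 0.0781) and 0.50 with an SE of 0.12 in QDG (limma adjusted p = 0.0522). It passed in Model after removal of the length trend (adjusted p = 0.0306) and with voom scaled by the median ratio (0.0363). In QDG it passed under 7 of 18 alternatives, among them the fits without WT 3 (0.0451), Model 2 (0.0384) and Model 3 (0.0475). Among all tested features, 17.3% had every Model library above every WT library, and 4 of the 10 members did (Col1a1, Col1a2, Col3a1 and Fn1). For QDG against WT the share was 15.2% and the members numbered 5, Sparc included. The groups were separated downward for Dcn in both comparisons, as for 10.9% of tested features in Model and 12.5% in QDG.

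The 6 members made up of the 5 collagen genes and Fn1 were longer than 6000 bases. Features of that length ran low in Model, with a median log2 difference of −0.11 from WT, and high in QDG against Model, with a median of 0.09. After each library's length trend was removed, Model stood above WT by a log2 of 0.93 for Col1a1, 1.06 for Col3a1, 0.66 for Col1a2 and 0.55 for Fn1, each larger than before.

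Type IV collagen differed little between the groups. Col4a1 (ENSMUSG00000031502), the alpha 1 chain, stood at 18.6, 17.1 and 22.9 FPKM in WT, 23.3, 23.5 and 19.3 in Model, and 20.5, 24.1 and 22.2 in QDG. Col4a2 (ENSMUSG00000031503), the alpha 2 chain, stood at 14.9, 12.8 and 19.9 FPKM in WT, 16.8, 17.1 and 15.3 in Model, and 16.4, 20.9 and 18.5 in QDG. The ranges of all groups overlapped for both genes. For Model against WT the log2 difference was 0.17 for Col4a1 (unadjusted 95% interval −0.12 to 0.46) and 0.07 for Col4a2 (−0.27 to 0.41). The limma adjusted p was 0.415 for Col4a1 and 0.806 for Col4a2. For QDG against WT it was 0.19 (−0.10 to 0.48) and 0.23 (−0.11 to 0.57), with limma adjusted p of 0.433 and 0.400.

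The genes of the alpha 1 and alpha 2 chains lie head to head and are read from a shared promoter region in opposite directions. In the rat RefSeq table (build GRCr8) their start sites were 77 bases apart, and the promoter windows of both genes overlapped over 176 bases. The Col4a1 window, chr16:84885347-84885646 on the plus strand, is shown for that overlap, which is in capitals. The Col4a2 window reads the same stretch on the minus strand.
Col4a1: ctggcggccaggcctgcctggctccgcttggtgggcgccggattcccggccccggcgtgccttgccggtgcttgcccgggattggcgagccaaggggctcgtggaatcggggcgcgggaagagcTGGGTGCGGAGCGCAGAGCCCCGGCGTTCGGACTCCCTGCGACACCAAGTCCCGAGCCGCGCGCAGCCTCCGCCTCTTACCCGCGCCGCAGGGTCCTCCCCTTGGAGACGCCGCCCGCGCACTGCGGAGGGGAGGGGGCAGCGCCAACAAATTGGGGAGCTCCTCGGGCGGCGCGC
The shared stretch was 75% G and C, against a median of 51.7% over all windows. The ratio of Col4a1 to Col4a2 in FPKM was 1.25, 1.34 and 1.15 in WT, 1.38, 1.38 and 1.26 in Model, and 1.25, 1.15 and 1.20 in QDG. Every Model library lay above every QDG library, while WT spanned both. The group means of 1.25 ± 0.0953 (SD, n = 3), 1.34 ± 0.0682 and 1.20 ± 0.0460 lay closer together than those of Col1a1 to Col1a2.

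Tgfb1 (ENSMUSG00000002603) encodes the precursor of TGF-beta 1, which is secreted in latent form. It stood at 2.60, 1.90 and 2.87 FPKM in WT, 2.69, 3.37 and 2.90 in Model, and 2.69, 3.51 and 2.62 in QDG. The groups overlapped throughout. The log2 difference was 0.21 for Model against WT (unadjusted 95% interval −0.09 to 0.52, limma adjusted p = 0.338) and 0.19 for QDG against WT (−0.11 to 0.50, limma adjusted p = 0.446). A transcript level says nothing about how much latent TGF-beta 1 is activated.

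Sparc (ENSMUSG00000018593) encodes a collagen-binding matricellular protein that assists fibril assembly. Its values were 25.8, 20.7 and 33.2 FPKM in WT, 34.6, 34.8 and 28.6 in Model, and 36.0, 35.8 and 35.6 in QDG. The QDG libraries lay above all others and close together, with a coefficient of variation of 0.557% against 23.7% in WT. The log2 difference from WT was 0.31 with an SE of 0.16 in Model (limma adjusted p = 0.227) and 0.44 with an SE of 0.16 in QDG (limma adjusted p = 0.150). WT 3 lay within the Model range, and without it Sparc passed in Model (log2 difference 0.48, adjusted p = 0.0455) and in QDG (0.61, adjusted p = 0.0346).

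Ccn2 (ENSMUSG00000019997) encodes connective tissue growth factor, an early target of TGF-beta and of mechanical signalling through YAP and TEAD factors. Its values were 28.5, 23.1 and 21.3 FPKM in WT, 35.7, 26.3 and 36.4 in Model, and 33.5, 27.2 and 23.8 in QDG. The groups overlapped, with Model 2 below WT 1. The mean was 24.3 ± 3.76 FPKM (SD, n = 3) in WT, 32.8 ± 5.65 in Model and 28.2 ± 4.92 in QDG. Model differed from WT by a log2 of 0.41 (SE 0.17, limma adjusted p = 0.148) and QDG by 0.20 (SE 0.17, limma adjusted p = 0.528).

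The promoter of rat Ccn2 is shown because Ccn2 deviated from its group means unlike most other members, as described below. It is the RefSeq sequence of build GRCr8, chr1:22624565-22624864 on the minus strand. Capitals mark 3 TEAD elements, read on the opposite strand, and a TATA box.
Ccn2: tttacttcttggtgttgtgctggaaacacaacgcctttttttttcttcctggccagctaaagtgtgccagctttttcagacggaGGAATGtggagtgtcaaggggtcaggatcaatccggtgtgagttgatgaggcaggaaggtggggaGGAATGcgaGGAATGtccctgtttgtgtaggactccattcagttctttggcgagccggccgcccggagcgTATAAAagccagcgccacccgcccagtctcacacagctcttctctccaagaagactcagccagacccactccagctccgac
The TEAD letters (CATTCC, either strand) began at positions −166, −101 and −92 from the start site, and TATAAA at −31. CATTCC stood in 14.2% of all windows and, among the members with a window, also in that of Sparc. A SMAD palindrome (GTCTAGAC) stood in 0.197% of all windows and in 0 of the 6 members' windows. No match overlapped another. These are matches of letters in rat sequence, and no binding was measured.

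QDG against Model addresses what the granule changed in hypertensive kidney. No member passed (0 of 10), and neither did any of the 12187 tested features (0%, limma). Voom on recovered reads called 0 members under both scalings. At an unadjusted p under 0.05, 1 member was higher in QDG (Col1a1) and 0 were lower, against 4.27% and 9.64% of all tested features. All QDG libraries stood above all Model libraries for 2 members (Col1a1 and Sparc) and below them for 0, where 10.4% and 16.3% of tested features were separated in these directions. For Col1a1 the log2 difference was 0.46 (unadjusted 95% interval 0.02 to 0.89, limma adjusted p = 0.349), and for Col3a1 it was 0.31 (−0.01 to 0.62, limma adjusted p = 0.370).

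The other members stood closer to their Model levels. QDG differed from Model by a log2 of 0.15 for Col1a2 (unadjusted 95% interval −0.14 to 0.44), 0.14 for Fn1 (−0.12 to 0.40), 0.17 for Col4a2 (−0.17 to 0.51), 0.13 for Sparc (−0.21 to 0.48) and 0.02 for Col4a1 (−0.28 to 0.31). It was −0.02 for Tgfb1 (−0.33 to 0.28), −0.12 for Dcn (−0.53 to 0.28) and −0.21 for Ccn2 (−0.59 to 0.17). Limma adjusted p values lay between 0.592 (Ccn2) and 0.962 (Col4a1) for these 8 genes. The means of Tgfb1 and Ccn2 in QDG lay between those of WT and Model, and those of the other 8 members did not. After the length trend was removed, the log2 difference was 0.37 for Col1a1, 0.18 for Col3a1, −0.00242 for Col1a2 and −0.00839 for Fn1.

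Within groups, most members deviated from their means in the same libraries. WT 2 lay below the WT mean for all 10 members and WT 3 above it for 8. Model 2 lay above the Model mean for 9 and QDG 2 above the QDG mean for 8. Model 3 and QDG 1 lay below their means for 8 each and QDG 3 for 9. Deviations sum to 0 within a group, so these counts are not independent. The median deviation of the members was −0.21 in WT 2, 0.19 in WT 3, 0.14 in Model 2, 0.14 in QDG 2 and −0.02 in QDG 3 on the log2(FPKM + 1) scale. That of all tested features lay between −0.03 and 0.02 in every library. A median over so many features stays near 0 in scaled libraries, so it does not show how often 10 genes deviate together.

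**Figure D4:**
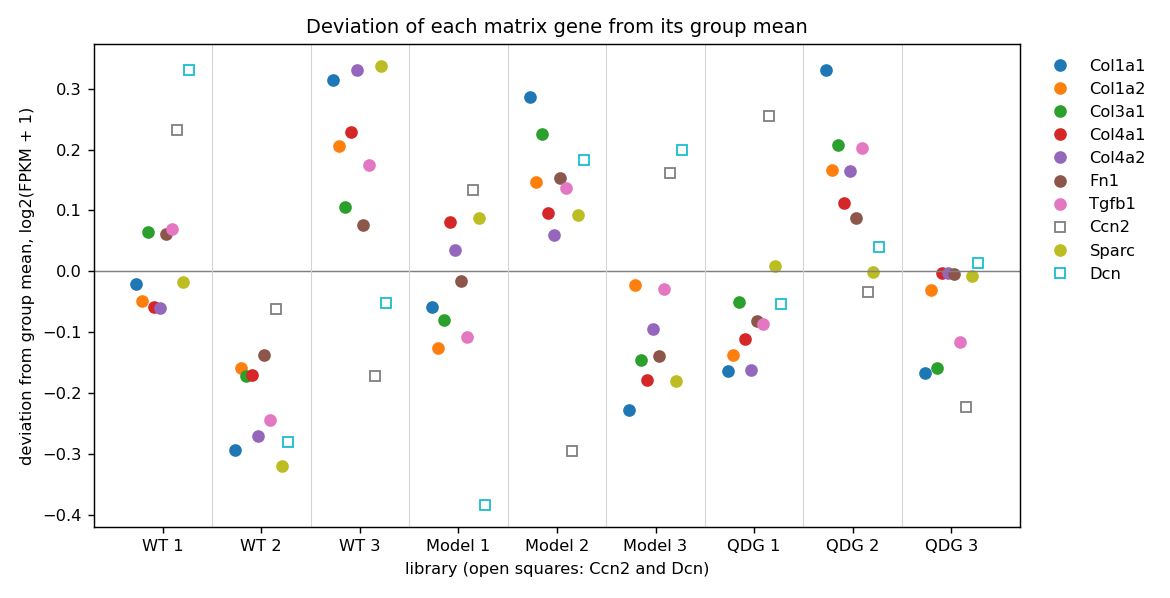
Deviation of each gene from its group mean in each library, on the log2(FPKM + 1) scale, with 1 point per gene and open squares for Ccn2 and Dcn. The other 8 genes lie mostly on 1 side of 0 within WT 2, WT 3, Model 2, Model 3 and QDG 2, and Ccn2 often lies on the other.

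Correlations of these deviations are given as a description over the 9 libraries, which share their library and depth across genes. Pearson's r was 0.94 between Col1a1 and Col3a1, 0.91 between Col1a1 and Col1a2, and 0.94 between Col4a1 and Col4a2. Tgfb1 followed the fibrillar chains as closely, at 0.92 with Col1a1, 0.91 with Col1a2 and 0.91 with Col3a1. Ccn2 ran the other way, from −0.59 with Col1a2 to −0.25 with Tgfb1, with 0.03 for Dcn. Dcn, which was low in the groups where fibrillar collagens stood high, had within-group r of 0.24 with Col1a1, 0.40 with Col1a2 and 0.41 with Col3a1. With group differences left in, r between Dcn and these genes was −0.75, −0.71 and −0.80.

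The features most like the mean pattern of the members over the 9 libraries are given by identifier, since no name could be looked up. Likeness was Pearson's r between log2(FPKM + 1) of a feature and the mean of the members' standardized values. The members' own r with that mean ran from 0.82 (Col4a2) to 0.95 (Col1a1), except for Ccn2 (0.26) and Dcn (−0.61). The mean pattern thus does not describe Ccn2 or Dcn. Likeness was highest for ENSMUSG00000038637 (r = 0.97, Spearman's rho 0.93), which stood at 0.931, 0.708 and 1.29 FPKM in WT and 1.61, 1.89 and 1.66 in QDG, and for ENSMUSG00000036908 (r = 0.96, rho 0.97). It was lowest for ENSMUSG00000014077 (r = −0.98, rho −0.98), at 61.7, 75.8 and 55.6 FPKM in WT and 53.3, 49.9 and 52.8 in QDG, and for ENSMUSG00000074656 (r = −0.96, rho −0.93). They were picked as extremes among all tested features, so no p is attached.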

How the data were processed

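Kidney RNA was measured in 9 libraries, 3 in each group of the titles. Per the labels' protocols, ribosomal RNA was removed and libraries were made with an NEB kit, so unspliced RNA can contribute. The values deposited by the authors, 1 per feature and library, are taken to be FPKM, reads or fragments that the authors scaled to feature length and a size for each library. As given above, that size was not the plain read total. The unit is not written and was read from the values, whose steps gave whole reads for all 17862 features (tolerance 0.0001 read, or 2e-07 of the count), as single reads or pairs. Limma is named in the submitters' processing notes. The sources used here name no aligner, counter, build or annotation. No value was 0.

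The 12187 features whose mean over the 9 libraries reached 1 FPKM were transformed to log2(FPKM + 1), which understates changes of low genes. A single limma model with an intensity trend (limma 3.58.1, R 4.3.3) was fitted to all libraries, with two-sided p-values adjusted by Benjamini-Hochberg per comparison and called under 0.05. The fit was tested on simulated data. All 10 members passed the filter. Alternatives were other pseudocounts, filters and scalings, voom on recovered reads, removal of each library's length trend, 2-group fits, a replicate block and leaving out each library.

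Members and lists were chosen with earlier results of these data known. All members were to be named, with the 2 features most and the 2 least like them. Planned lists of other matrix genes and cell markers, written as symbols, could not be matched to identifiers. Rat promoters came from RefSeq (GRCr8).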

Additional observations from a re-analysis of the deposited data

How the results depend on the processing

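The number of members called in Model against WT was 3, and 1 with a mean of at least 5 FPKM (which 5 of the 10 members reached), 1 with only the 2 groups fitted, 5 with voom scaled by the median ratio, and 1 (without WT 1, Model 1 or Model 3) to 5 (without WT 3) with 1 library left out. All features called numbered 963, and 883 with a mean of at least 5 FPKM, 144 with only the 2 groups fitted and 1103 with that voom fit. They numbered 413, 294 and 195 in the fits without WT 1, Model 1 or Model 3, and 1529 without WT 3. In QDG against WT the number of members called was 4, and 1 with a mean of at least 5 FPKM, where all features called went from 301 to 295. It lay between 1 (without WT 1 or QDG 2) and 6 (without WT 3) in fits lacking a library. All features called in those fits numbered 73, 39 and 775. In QDG against Model the number of members called was 0 throughout. Same-numbered libraries of different groups did not deviate together (r from −0.33 to 0.14, against −0.24 to 0.43 for other numbers). The closest library of another group had the same number in 5 of 18 cases. Pairing by number was therefore not seen, but 3 libraries per group are too few to exclude it. With a replicate block, 1 member was called in Model against WT (Col1a1 at adjusted p = 0.0608 and Dcn at 0.0564 were not), 2 in QDG against WT (Col1a2 at 0.0687 and Dcn at 0.0666 were not) and 0 in QDG against Model, where all features called numbered 533, 154 and 0. Differences near 0 changed sign. In Model against WT, Col4a2 was −0.030 after quantile normalization and ranged from −0.068 (without WT 2) to 0.233 (without WT 3). In QDG against Model, removal of the length trend gave −0.00242 for Col1a2, −0.0826 for Col4a1 and −0.00839 for Fn1, and voom scaled by total reads gave 0.0166 for Tgfb1. With 1 library left out, Col4a1 ranged from −0.0725 to 0.0719 and Tgfb1 from −0.121 to 0.0482. The causes of these changes were not tested. Over all features, Model against WT called 732 higher and 231 lower, 442 and 286 after quantile normalization, 475 and 307 with voom scaled by total reads, and 144 in all with only the 2 groups fitted. Removing the length trend or quantile normalization kept the summed FPKM of the 10 members within 1 SD except in Model, where it was 120.1 and became 114.6 after quantile normalization. Each member had at least 75 reads in each library, and 3 libraries per group leave wide intervals.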
